A study of Mus musculus with 45 samples.

Results

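Acly, Acss2, Me1, Scd1 and Srebf1 are genes of lipogenesis, the making of fatty acids from smaller carbon units, and they were followed in the inguinal fat of mice over early under- and over-nutrition and over age. They were chosen by their gene symbols, with the brightest probe taken for each gene by its mean over the 45 arrays, and they are 5 of the 13840 genes that carried a single symbol. The choice was made with their levels at the nursing and the weaned ages and their differences between diets already known. Those differences are therefore given as descriptions with standard errors and no test.

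In an adipocyte, Acly cuts citrate in the cytosol to release acetyl-CoA, and Acss2 makes the same product from acetate. Me1, cytosolic malic enzyme, yields NADPH, the reductant that fatty acid synthase uses. Scd1 places a double bond in saturated fatty acids, and Srebf1 encodes the transcription factor SREBP-1, which switches on genes of this pathway.

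RNA came from inguinal fat, a subcutaneous depot, of C57BL/6J mice, taken on days 5, 10 and 21, during nursing, and on days 56 and 112, after weaning. The study's methods name male mice only for the housing after weaning. Control pups grew in litters of 8 with dams that ate a breeder diet of 22 kcal % fat freely. LUN pups, under-nourished from birth to weaning, grew in litters of 8 with dams given 50% of the food that control dams ate. LON pups, over-nourished over the same time, grew in litters of 4 with dams on a diet of 58 kcal % fat. After weaning all mice ate chow of 11 kcal % fat until day 56, and then a diet high in saturated fat for 8 weeks until day 112, so that day 112 differs from day 56 in age and in diet together. Each of the 15 groups was 1 RNA pool of 12 mice, read on 3 arrays. The p-values measure the spread between arrays of a pool, or, where pools are taken as the samples, that between pools. None of them measures the spread between mice.

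Promoters are shown for Acly and Acss2, the enzymes that make acetyl-CoA, because these genes were both low during nursing in control and high at day 56, and parted at day 112. The sequences are from RefSeq on GRCm38.p6, 5′ to 3′ along the gene, with 250 bases before and 50 bases from the start site on. Capitals mark CCAAT boxes (CCAAT) and GC boxes (GGGCGG), read on either strand. The Acly window is chr11:100527951-100528250 on the minus strand, and the Acss2 window is chr2:155517793-155518092 on the plus strand.
Acly: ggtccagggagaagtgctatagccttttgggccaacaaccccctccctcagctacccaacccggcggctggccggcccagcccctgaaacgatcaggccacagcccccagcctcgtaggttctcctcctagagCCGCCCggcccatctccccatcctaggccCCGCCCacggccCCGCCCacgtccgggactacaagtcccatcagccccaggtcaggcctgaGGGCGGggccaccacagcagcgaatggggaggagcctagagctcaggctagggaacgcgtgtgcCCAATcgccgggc
Acss2: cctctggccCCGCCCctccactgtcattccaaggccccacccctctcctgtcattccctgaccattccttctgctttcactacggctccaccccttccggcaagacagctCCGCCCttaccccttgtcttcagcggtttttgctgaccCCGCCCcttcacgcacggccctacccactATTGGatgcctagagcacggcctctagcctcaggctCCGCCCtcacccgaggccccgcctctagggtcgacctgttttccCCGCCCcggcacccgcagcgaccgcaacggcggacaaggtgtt
The Acly window held 4 GC boxes and 1 CCAAT box, and the Acss2 window held 5 GC boxes and 1 CCAAT box. In Acss2 the CCAAT box began at base -73 from the start site, and in Acly it began at base 38 after it. Of 32851 promoter windows of this length, 37.4% held a CCAAT box and 35.7% a GC box. The letters TCACNCCAC, a form of the sterol element to which SREBP-1 binds, were found in 1.24% of all windows, and CACGTG, an E box, in 7.15%. Neither was found in the 7 windows that RefSeq gave for Acly, Acss2, Me1 and Srebf1. A match of letters is a description of the window only, and Scd1 was not analysed here in this way.

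All 5 genes were bright, each measured by 1 probe. Over all arrays Acly lay above 88.2% of the 33012 probes and Scd1 above 98.4%. Levels are given as quantile-normalized signal in the arrays' own units, which can be compared between groups for a gene but not between genes. The median raw signal of the arrays ran from 545 to 1459, and each array's mean correlation with the other 2 of its pool from 0.806 to 0.963. Array 2 of control day 112 stood apart. Of the 1000 brightest probes of its pool, 79 lay at least 8-fold below both other arrays there, against 38, 27 and 16 on array 3 of LON day 21, array 3 of LUN day 5 and array 1 of LON day 56, and 7 or fewer on every other array. Some results that use it are therefore given with and without it, and the others with all arrays only. Adipocyte markers, 9 of 12 measured, were all above the median probe in every group, and their summed signal ran from 1993000 to 4412000. Skeletal muscle markers, 10 of 11 measured, summed to between 108300 in LON day 112 and 3542000 in LON day 56, so that the pools differed in their content of muscle RNA. In such bulk RNA, fewer cells of a type and less RNA per cell cannot be told apart. The LON arrays are numbered apart from the others in the labels, and their deposited values share a median of 9.815 where the other arrays lie between 9.779 and 9.784, so that the over-nourished diet and a separate handling of these arrays cannot be told apart.

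Acly had low signal during nursing, a single high point at day 56 and a lower level again after the high fat diet. At day 5 the 3 arrays gave 7321, 10470 and 9096 in control, 4426, 3959 and 2433 in LUN, and 21170, 19570 and 22560 in LON. At day 10 they gave 6272, 5081 and 5601 in control, 3122, 2971 and 2157 in LUN, and 7538, 7330 and 4868 in LON. The under-nourished pools were below control without overlap at both ages, and the over-nourished pool was above control at day 5 and overlapped with it at day 10. At day 21 the signals were 23020, 25560 and 23260 in control, 4308, 4691 and 3406 in LUN, and 18620, 20980 and 21790 in LON. This was the age at which LUN was farthest below control for this gene, with a difference of -2.55 ± 0.22 on the log2 scale (standard error, 3 arrays a pool), or 5.84-fold. At day 56 the signals were 104100, 90530 and 96700 in control, 86770, 107500 and 88870 in LUN, and 130900, 120900 and 122500 in LON. At day 112 they were 16650, 10850 and 15450 in control, 12710, 12820 and 15660 in LUN, and 30330, 22450 and 29980 in LON. The 3 day 56 pools were therefore the 3 highest of the 15, and no array of any other group reached them. Between the lowest pool, LUN day 10, and the highest, LON day 56, the mean differed by 45.9-fold.

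Acss2 shared the low nursing levels and the high level at day 56, but it stayed in the same range at day 112. At day 5 its signals were 6304, 6778 and 5629 in control, 4651, 4078 and 2865 in LUN, and 37570, 41680 and 45950 in LON. At day 10 they were 4744, 5629 and 4329 in control, 3366, 2241 and 1962 in LUN, and 8170, 8575 and 7548 in LON. At day 21 they were 9069, 11260 and 9876 in control, 4862, 4092 and 5182 in LUN, and 39710, 37430 and 45470 in LON. The diets kept one order at these 3 ages, LUN below control and control below LON, and no arrays overlapped between diets. With arrays scaled by their median signal instead, LON and control overlapped at day 10. At day 56 the signals came to 53420, 52250 and 53850 in control, 58000, 52850 and 48400 in LUN, and 71800, 60670 and 59830 in LON. At day 112 they came to 51880, 45570 and 58630 in control, 39980, 55890 and 39500 in LUN, and 77420, 60730 and 81450 in LON. LUN and control overlapped at both weaned ages, while LON lay just above control. The level of the nursing LON pools at days 5 and 21 was near that of the weaned pools, and arrays of LON day 5 overlapped with those of LUN at day 112, and with control at day 112 only on its array 2.

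Me1 had the widest range of the 3 supply enzymes, 64.5-fold between LUN day 5 and LON day 56. At day 5 the arrays gave 14940, 12810 and 14100 in control, 4264, 5552 and 3421 in LUN, and 87030, 148200 and 73800 in LON. At day 10 they gave 10620, 9764 and 10380 in control, 5807, 6124 and 8248 in LUN, and 13280, 16300 and 17160 in LON. At day 21 they gave 15910, 12430 and 15750 in control, 8166, 7700 and 8625 in LUN, and 38740, 39350 and 41840 in LON. The order of the diets was that of Acss2, with no overlap between diets at these ages. At day 56 the arrays gave 144000, 176400 and 149600 in control, 143000, 124100 and 156600 in LUN, and 374100, 280400 and 208800 in LON. At day 112 they gave 50810, 75630 and 56150 in control, 56450, 62510 and 53330 in LUN, and 182000, 249200 and 255100 in LON. LON stayed above control at both weaned ages without overlap, by 1.79-fold at day 56 and 3.77-fold at day 112, whereas LUN and control overlapped.

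Scd1, the desaturase, had the widest differences between diets of the 5 genes at days 5 and 10. At day 5 its signals were 34320, 35970 and 39230 in control, 6249, 4730 and 3559 in LUN, and 1041000, 810800 and 783600 in LON. At day 10 they were 93090, 97960 and 81080 in control, 11150, 9729 and 9906 in LUN, and 719700, 640600 and 891100 in LON. The over-nourished pool was thus 23.9-fold above control at day 5 and 8.22-fold above it at day 10, while the under-nourished pool was 7.72-fold and 8.83-fold below it. At day 21 the signals were 100700, 90270 and 95150 in control, 216500, 187300 and 176100 in LUN, and 971100, 1307000 and 1152000 in LON. Here LUN had passed control, a place that none of the other 4 genes had at this age. At day 56 the signals were 476900, 441400 and 441400 in control, 352800, 783600 and 498000 in LUN, and 697700, 695600 and 777900 in LON. At day 112 they were 1328000, 30910 and 1802000 in control, 1339000, 1390000 and 1211000 in LUN, and 3602000, 1440000 and 3602000 in LON. The value of 30910 is that of array 2, on which Scd1 had rank 2484 among the probes, against ranks 45 and 18 on the other 2 arrays of that pool. The raw signal showed the same gap, 34140 against 1102000 and 1740000. The standard error of Scd1 between 2 pools was 0.71 with this array in the fit, and 0.27, or 0.30 at control day 112, without it. The Scd1 probe may also read close relatives of the gene, which was not tested.

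Srebf1, the regulator, varied least. Its pools spanned 3.63-fold in all. With all arrays the control pools alone spanned only 0.37 on the log2 scale, against 3.45 to 4.11 for the 4 enzymes. At day 5 its signals were 178900, 279600 and 146900 in control, 83750, 94320 and 151100 in LUN, and 298600, 236300 and 273100 in LON. At day 10 they were 147100, 153100 and 197900 in control, 116200, 145800 and 107600 in LUN, and 152800, 200400 and 196800 in LON. At day 21 they were 192200, 155300 and 204200 in control, 104100, 80680 and 68340 in LUN, and 220400, 198300 and 177400 in LON. LUN was below control without overlap at days 10 and 21, and it overlapped at day 5. With arrays scaled by their median signal instead, LUN and control overlapped at day 21 too. At day 56 the signals were 177700, 218500 and 224500 in control, 108600, 172100 and 269400 in LUN, and 266900, 286300 and 249700 in LON. At day 112 they were 164100, 306400 and 193200 in control, 250300, 438900 and 246700 in LUN, and 204700, 238300 and 226800 in LON. Among these weaned pools LON lay clear of control at day 56. At day 112 both diets overlapped with control, in each case only with its array 2, and without that array both lay above control. The probe does not tell the isoforms of Srebf1 apart here.

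**Figure D1:**
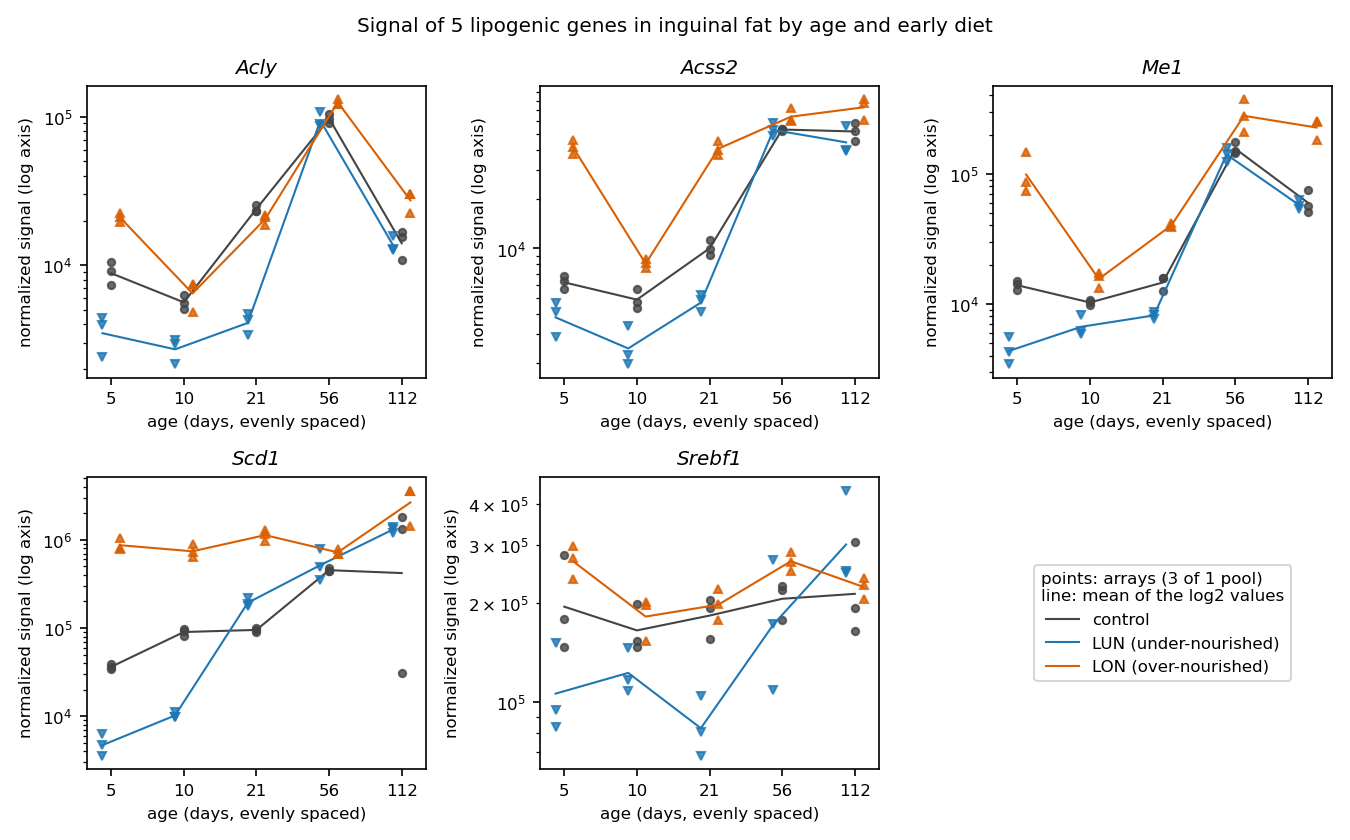
Normalized signal of the 5 genes (vertical, log axis) against age in days (horizontal, evenly spaced) in control, LUN and LON; each point is 1 of 3 arrays of a pool and the lines join the means of the log2 values. The enzymes are low in control and LUN during nursing and high at day 56, Acly alone returns far down in all diets at day 112, and 1 control array of Scd1 at day 112 lies at 30910.

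Ranked by level, the 15 pools of each gene make 14 pairs of neighbours. The arrays of neighbouring pools overlapped in 8 pairs for Acly, 10 for Acss2, 8 for Me1, 9 for Scd1 and 12 for Srebf1, so that most neighbours did not differ beyond their spread. Some neighbours were far apart. For Acly the lowest day 56 array was 86770 and the next pool down, LON day 112, reached 30330 at most. For Acss2 the gap fell under LON day 21, whose lowest array was 37430, with control day 21 next at 11260 at most. For Me1 the lowest LON day 21 array was 38740, and LON day 10 reached 17160.

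Taking the nursing ages (days 5, 10 and 21) against the weaned ages (days 56 and 112), the 5 genes had a median difference of -2.68 on the log2 scale in control, -3.79 in LUN and -1.51 in LON. Over all probes the median difference lay between 0.01 and 0.017. The genes were picked on this contrast, so no calls are given for them. For Acss2 the differences were -2.96 in control, -3.79 in LUN and -1.51 in LON, each ± 0.13. For Me1 they were -2.92, -3.86 and -2.68, each ± 0.15. For Acly they were -1.80, -3.40 and -2.05, each ± 0.14, which averages its high day 56 with its lower day 112. Every nursing array lay below every weaned array for Acss2 and Me1 in each diet, whereas for Acly the arrays overlapped in control and in LON. The share of all probes separated in this way was not counted, and nothing is read from it. For Scd1 the differences were -2.68 in control, -5.29 in LUN and -0.62 in LON, each ± 0.46, and without array 2 of control day 112 the control value became -3.62 ± 0.18. For Srebf1 they were -0.22, -1.15 and -0.20, each ± 0.19. Adipocyte markers had medians of -0.23, -0.51 and -0.31, with 1, 2 and 2 of 9 lower at the nursing ages. Fibroblast markers lay on the other side of zero, with 4 of 8 higher at the nursing ages in each diet and medians of 1.24, 0.58 and 0.87. Macrophage markers were lower at these ages in 2, 4 and 4 of 6, with 1 higher in LUN. Lymph node markers were lower in 4, 1 and 5 of 9, with 2 higher in LUN. Hepatocyte markers were lower in 2 of 7 in each diet. Brown adipocyte markers were higher in 2, 2 and 3 of 7 and lower in 1, 1 and 0, with medians of 0.22, -0.46 and 0.89. Without array 2 of control day 112 the control medians were -0.43 for brown adipocyte, 0.67 for fibroblast and -0.32 for adipocyte markers. Of all probes, 4.67%, 6.69% and 3.67% were called lower at the nursing ages and 4.63%, 6.48% and 4.47% were called higher. The part of these cell types in the result was not tested.

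Against control, LUN had a median over the 5 genes of -1.34 on day 5, -0.99 on day 10 and -1.10 on day 21. After weaning the median was -0.05 (day 56) and -0.04 (day 112). These are differences the genes were picked on, and no calls are given. The arrays of LUN and control stood apart for 4, 5, 5, 0 and 0 of the genes from day 5 to day 112, Scd1 on day 21 on the higher side, beside 17.9%, 21.5%, 19.5%, 13% and 15.9% of all probes, and nothing is read from these counts. Without array 2 of control day 112 the last count was 1, Srebf1, beside 27.7% of all probes. For Acss2 the differences during nursing were -0.72, -0.99 and -1.10, each ± 0.20, and for Me1 -1.69, -0.63 and -0.84, each ± 0.23. For Acly they were -1.34, -1.05 and -2.55, each ± 0.22, and for Srebf1 -0.87, -0.43 and -1.14, each ± 0.29. Scd1 alone changed side, from -2.95 ± 0.71 and -3.14 ± 0.71 on days 5 and 10 to 1.02 ± 0.71 on day 21, with each standard error 0.27 once array 2 of control day 112 was left out. On day 112 Scd1 was 1.64 ± 0.71 above control with that array, and the difference was -0.24 ± 0.30 without it. Adipocyte markers had medians of 0.00, -0.57 and -0.11 in LUN against control on days 5, 10 and 21, with 0 of 9 called by limma and 1, 3 and 2 at an unadjusted p under 0.05. Skeletal muscle markers were higher in 9 of 10 on day 10 (median 2.18) and lower in 8 of 10 on day 21 (median -1.76). Brown adipocyte markers were lower in 2 of 7 on day 5 and in 1 of 7 on day 21, with medians of -0.59 and -0.78. Of all probes 0.86%, 0.818% and 1.14% were called lower on days 5, 10 and 21, and the share called higher is not given. The part of these cell types in the differences was not tested.

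LON had a median over the 5 genes of 2.74 above control on day 5, 0.60 on day 10 and 1.45 on day 21, and of 0.38 and 0.96 on days 56 and 112. The arrays of LON and control stood apart for 4, 3, 4, 5 and 3 of these genes, Acly on day 21 on the lower side, beside 21.8%, 17.6%, 16.8%, 20.8% and 21.1% of all probes, and again nothing is read from the counts. Without array 2 of control day 112 the last was 4, with Srebf1 added, beside 32.2%. The small difference on day 56 depended on the scaling of the arrays, since under median scaling its median was -0.05 and 0 of the 5 genes stood apart, beside 22.8% of all probes. For Acss2 the differences during nursing were 2.74, 0.73 and 2.02, each ± 0.20, so that day 10 lay well below the ages on either side. Me1 had the same dip, with differences of 2.82, 0.60 and 1.45, each ± 0.23. So did Scd1 in its mean values, 4.58, 3.04 and 3.57, each ± 0.71. For Acly the differences were 1.25, 0.20 and -0.23, each ± 0.22, and for Srebf1 they were 0.46, 0.15 and 0.12, each ± 0.29. On day 112 the difference of Me1 was 1.91 ± 0.23 with all arrays and 2.08 ± 0.25 without array 2, that of Acly 0.96 ± 0.22 and 0.77 ± 0.23, and that of Scd1 2.66 ± 0.71 and 0.78 ± 0.30. The comparisons of LUN and of LON at an age share the control arrays. Skeletal muscle markers were higher in LON in 10 of 10 on day 10 (median 3.62) and in 9 of 10 on day 56 (median 5.04), and lower in 9 of 10 on days 21 and 112 (medians -1.56 and -4.37). On day 5 the median of the skeletal muscle markers was 0.02, with 1 of 10 lower. Adipocyte markers had a median of 0.12 on that day, with 0 of 9 called by limma and 2 at an unadjusted p under 0.05. Brown adipocyte markers were higher in 1 of 7 on each of the 3 nursing days. Of all probes 1.06%, 0.66%, 0.918%, 0.654% and 1.48% were called higher from day 5 to day 112, and the share called lower is not given. The part of these cell types in the differences was not tested.

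**Figure D2:**
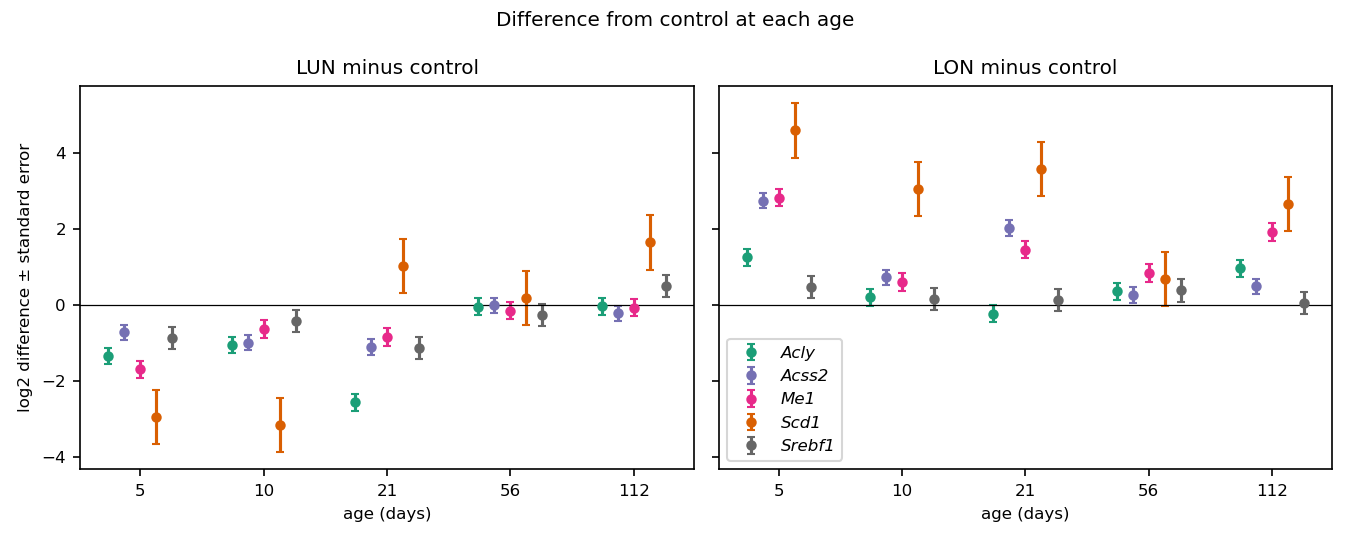
Log2 difference from control (vertical) at each age in days (horizontal) for LUN at left and LON at right; points are the 5 genes and bars are ± 1 standard error of the fit over all 45 arrays, from 3 arrays of 1 pool a group. LUN points lie below 0 at days 5 and 10, Scd1 is above it at day 21, and most lie near 0 from day 56. LON points are highest at day 5 for Acss2, Me1 and Scd1, and the wide bars of Scd1 come from 1 control array at day 112.

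The choice of the genes named neither the change from day 56 to day 112 nor that from days 5 and 10 to day 21. These were therefore tested, the first of them spanning the weeks on the high fat diet. The levels at these ages were known when the genes were chosen, so these p-values are not independent of the choice. From day 56 to day 112 Acly fell in all 3 diets. The difference was -2.78 ± 0.22 in control (adjusted p = 4.18e-11, limma), -2.78 ± 0.22 in LUN (adjusted p = 8.29e-11) and -2.19 ± 0.22 in LON (adjusted p = 1.49e-08), which is 6.89-, 6.87- and 4.56-fold. Me1 fell in control (-1.38 ± 0.23, adjusted p = 0.000263) and in LUN (-1.29 ± 0.23, adjusted p = 0.000632), and in LON its difference of -0.31 ± 0.23 did not pass (adjusted p = 0.649). Both calls of Me1 were lost when limma was given only the arrays compared (adjusted p = 0.295 and 0.156). Whether the change of Me1 differed between diets was not tested. Acss2 differed by -0.04, -0.25 and 0.19, each ± 0.20, and was not called in any diet (adjusted p = 0.963, 0.649 and 0.796). Thus 2 of the 5 genes fell in control, 2 in LUN and 1 in LON, against 1.83%, 1.34% and 0.812% of all probes called lower.

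Scd1 is the gene for which array 2 of control day 112 decides the result. With all arrays its differences of -0.11 in control, 1.34 in LUN and 1.88 in LON, each ± 0.71, were not called (adjusted p = 0.971, 0.396 and 0.187, limma). Without that array they were 1.77 ± 0.30, 1.34 ± 0.27 and 1.88 ± 0.27, and all 3 were called higher at day 112 (adjusted p = 0.000297, 0.00186 and 1.61e-05). The array was left out after its values had been seen. Srebf1 differed by 0.05, 0.81 and -0.26, each ± 0.29, with no call in any diet (adjusted p = 0.965, 0.145 and 0.799). Leaving out array 3 of LUN day 56 raised its LUN difference to 1.14, which was then called (adjusted p = 0.0225).

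With each pool taken as 1 sample and the 3 diets as replicates of the ages, Acly was lower at day 112 in 3 of 3 diets, with a difference of -2.58 ± 0.45 (adjusted p = 0.031, limma over the 15 pools, where 0.379% of all probes were called). Leaving out the pools of any 1 diet ended this call, with adjusted p of 0.139 to 0.381 and differences of -2.78 to -2.49. The other 4 genes were not called over pools by limma, and 0 of them at an unadjusted p under 0.05. Their differences were -0.03 ± 0.53 for Acss2, -0.99 ± 0.52 for Me1, 1.04 ± 1.14 for Scd1 and 0.20 ± 0.32 for Srebf1. That of Scd1 was 1.66 ± 1.13 without array 2 of control day 112, and higher in 3 of 3 diets. The unpaired test named in the study's methods, run on the same log2 values of the arrays, gave Acly an adjusted p of 0.0692 in control, 0.0255 in LUN and 0.0469 in LON, and gave Me1 0.176 in control and 0.0723 in LUN.

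Brown adipocyte markers were also lower at day 112 than at day 56, in 5, 3 and 3 of 7 in control, LUN and LON, with medians of -2.39, -2.03 and -1.79. Elovl3, which the list of fatty acid synthesis also holds, is 1 of these 7, and over the other 6 the medians were -2.34, -1.87 and -1.68. Without array 2 of control day 112 the control median of the 7 was -1.24, with 4 lower. Their summed signal went from 1854000, 2012000 and 1179000 at day 56 to 296700, 575200 and 362300 at day 112. At day 21 it was 3652000, 1947000 and 3918000, while Acly was higher at day 56 than at day 21 in all 3 diets. In every group, 1 or 2 of the 7 lay below the median probe. Skeletal muscle markers went up in control (9 of 10, median 4.37) and down in LUN and LON (9 and 8 of 10, medians -1.26 and -5.29). Lymph node markers were lower at day 112 in 3, 0 and 2 of 9, fibroblast markers in 1, 0 and 0 of 8, and macrophage markers in 0, 0 and 1 of 6. Adipocyte markers were higher in 0, 1 and 1 of 9. Hepatocyte markers were lower in 1 of 7 in each diet, with 1 higher in control. Of all probes 1.83%, 1.34% and 0.812% were called lower at day 112, and the share called higher is not given. The part of these cell types in the fall of Acly was not tested.

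From days 5 and 10 to day 21, still in nursing, Acss2 rose in all 3 diets. It rose by 0.87 ± 0.18 in control (adjusted p = 0.000905, limma), by 0.62 ± 0.18 in LUN (adjusted p = 0.0234) and by 1.15 ± 0.18 in LON (adjusted p = 2.09e-05). Acly rose by 1.76 ± 0.19 in control (adjusted p = 3.27e-08) and by 0.81 ± 0.19 in LON (adjusted p = 0.00564), and its difference of 0.41 ± 0.19 in LUN did not pass (adjusted p = 0.265). Scd1 rose in LUN by 4.79 ± 0.61, or 27.7-fold (adjusted p = 9.56e-07). Its differences of 0.73 ± 0.61 in control and 0.50 ± 0.61 in LON did not pass (adjusted p = 0.563 and 0.788), though that of control was called without array 2 of control day 112 (0.73 ± 0.23, adjusted p = 0.0354). Me1 had differences of 0.29, 0.61 and 0.03, each ± 0.20, and Srebf1 of 0.03, -0.45 and -0.16, each ± 0.25, with no call. In each diet 2 of the 5 genes rose, against 4.23%, 3.61% and 2.91% of all probes in control, LUN and LON. Over the pools none of the 5 was called, where 4.42% of all probes were, although Acly, Acss2, Me1 and Scd1 were higher at day 21 in 3 of 3 diets. The unadjusted p of Acly over pools was 0.0248, and its difference 0.99 ± 0.39.

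The rise of Acss2 in LUN was not called when any 1 of 5 arrays was left out, array 3 of day 5, 2 or 3 of day 10 and 1 or 3 of day 21 (adjusted p = 0.0516 to 0.147). Me1 in LUN was called without array 2 of day 5 (adjusted p = 0.0351) or array 3 of day 10 (adjusted p = 0.0414). With only the arrays compared, Acss2 in LUN (adjusted p = 0.361) and Acly in LON (adjusted p = 0.0763) were not called. The rises of Acss2 and of Acly in LON also depended on the scaling of the arrays. When arrays were scaled by their median signal instead, that of Acss2 was 0.46, 0.34 and 0.67 in control, LUN and LON (adjusted p = 0.215, 0.58 and 0.0733) and that of Acly in LON was 0.44 (adjusted p = 0.335). Brown adipocyte markers were also higher at day 21, in 4, 3 and 4 of 7 with medians of 1.97, 1.38 and 2.22. Lymph node markers were higher in 7, 7 and 9 of 9, with 1 lower in LUN. Skeletal muscle markers were higher in 10, 6 and 3 of 10. Their part in these rises was not tested.

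**Figure D3:**
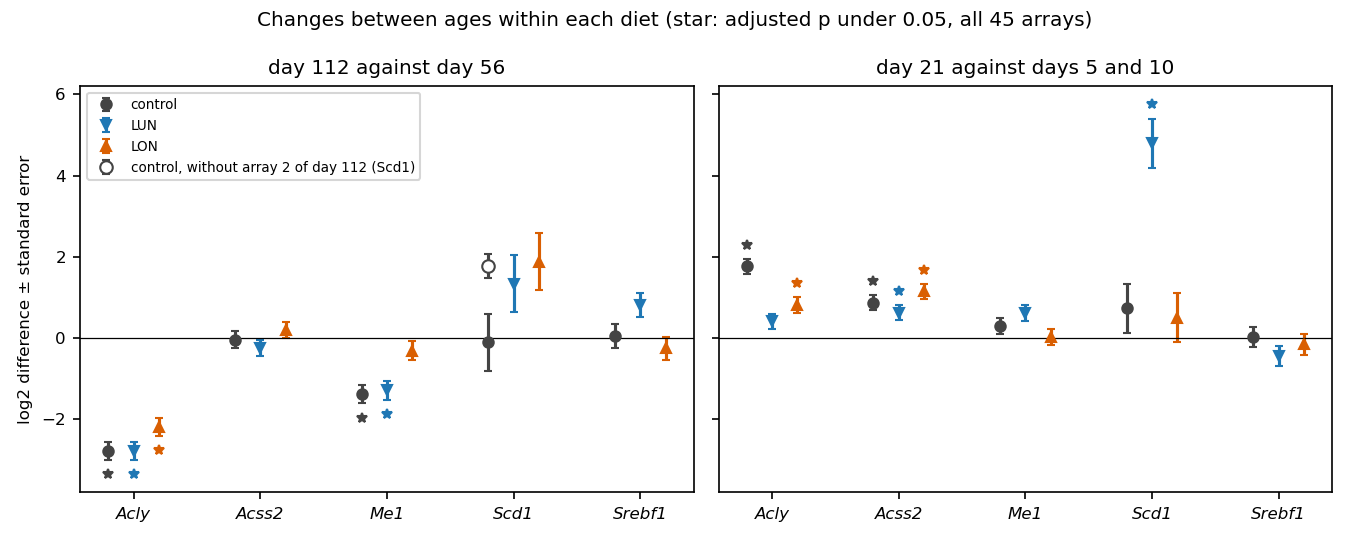
Log2 difference (vertical) for the 5 genes (horizontal), day 112 minus day 56 at left and day 21 minus the mean of days 5 and 10 at right, in control, LUN and LON; bars are ± 1 standard error from 3 arrays of 1 pool a group, and stars mark an adjusted p under 0.05 with all arrays. Acly is below -2 in every diet at left and Scd1 in LUN stands at 4.79 at right; the open circle shows Scd1 in control at 1.77 without array 2 of day 112.

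Other genes of the pathway were read from 4 lists chosen for their function, with values given in the order control, LUN and LON. Of the list of acetyl-CoA and NADPH supply, 6 of 11 were measured. Between nursing and weaned ages, 4, 5 and 4 of these 6 were lower at the nursing ages, and 0, 1 and 1 higher. Without array 2 of control day 112, 3 were lower in control. Of all probes 4.67%, 6.69% and 3.67% were called lower and 4.63%, 6.48% and 4.47% higher. Slc25a1, the mitochondrial carrier that brings citrate out to Acly, differed by -1.90, -2.59 and -1.23. Tkt, transketolase of the pentose phosphate pathway, differed by -0.94, -1.42 and -0.73. From day 56 to day 112, 2, 4 and 2 of the 6 were called lower, and 0, 0 and 1 higher, Idh1 in LON. Of all probes 1.83%, 1.34% and 0.812% were called lower there. Tkt fell in every diet (-1.82, -1.47 and -1.82), and so did Pdha1, a subunit of pyruvate dehydrogenase (-1.19, -1.41 and -1.30), in the direction of Acly. Both rose from days 5 and 10 to day 21 in all diets, Tkt by 1.57, 0.69 and 0.89 and Pdha1 by 0.80, 1.39 and 0.58. In that step 3, 3 and 2 of the 6 were called higher and 1, 0 and 1 lower, where 4.23%, 3.61% and 2.91% of all probes were called higher.

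Of fatty acid synthesis, elongation and desaturation, 13 of 16 genes were measured. Of these, 6, 8 and 5 were lower at the nursing ages and 0 were called higher by limma, with 0, 1 and 1 higher at an unadjusted p under 0.05. The medians of the list were -0.57, -0.80 and -0.46, against 0.03, 0.00 and 0.03 over all genes. Elovl6, which lengthens saturated fatty acids, differed by -1.19, -3.13 and -1.64. Without array 2 of control day 112 its control value was -1.93, the median of the list in control was -0.90, and Fasn (-1.44) and Scd2 (-1.87) counted as lower there, which with all arrays they did not (-0.56 and -1.02). Elovl6 also fell from day 56 to day 112 in each diet (-5.04 ± 0.55 in control with adjusted p = 9.92e-08, limma, -4.15 in LUN and -2.84 in LON), and its control value without array 2 was -3.58 ± 0.22. Fads3, of the fatty acid desaturase family, went the other way there and rose by 1.41, 1.91 and 1.61. Fasn, fatty acid synthase itself, fell in control with all arrays (-2.72 ± 0.71, adjusted p = 0.0255, limma). Without array 2 of control day 112 the difference of Fasn was -0.95 ± 0.39 and was not called (adjusted p = 0.319). In LUN the difference of Fasn was -0.39 and in LON it was -0.26, both without a call. Scd2, another desaturase of the Scd family, had differences of -0.01, 1.50 and 1.43 with no call, and it rose by 1.69 ± 0.36 in control without array 2 (adjusted p = 0.00696).

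Of the regulators, 11 of 15 were measured, and 5, 5 and 3 of them were lower at the nursing ages, and 3 in control without array 2 of control day 112. Insig1, which holds SREBP in the endoplasmic reticulum and is itself a target of it, differed by -1.18, -2.53 and -1.03. Mid1ip1, which promotes the activity of acetyl-CoA carboxylase, differed by -0.53, -2.10 and -0.66. Thrsp, a lipogenic protein related to Mid1ip1, rose from days 5 and 10 to day 21 in LUN by 2.80 ± 0.79 (adjusted p = 0.0224, limma). Its difference in control, 2.03 ± 0.79, did not pass (adjusted p = 0.11). Of glucose uptake and glycolysis, 11 of 15 were measured, and 3, 3 and 2 were lower at the nursing ages. In control 2 were lower without array 2 of control day 112. Slc2a4, the insulin-responsive glucose transporter, differed by -0.73, -1.67 and -0.81. Hk2 and Pgk1, enzymes of glycolysis, rose to day 21 in every diet, Hk2 by 1.03, 1.43 and 0.89 and Pgk1 by 1.07, 0.94 and 0.59. From day 56 to day 112, Pfkp, a phosphofructokinase, rose in control by 2.25 (adjusted p = 0.0339, limma).

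Some of these genes also differed between diets in the nursing pools. On day 5 LON was above control in 4 of the 6 supply genes, among them Slc25a1 (1.71), Idh1, a cytosolic source of NADPH (1.24), and Mdh1, which feeds malate to Me1 (1.22). On the same day it was above control in 3 of the 13 genes of fatty acid synthesis, led by Elovl3 (2.37), an elongase, where 1.06% of all probes were called higher. Pdha1 was above control in LON at all 5 ages, the weaned ones included, by 1.05, 0.84, 0.72, 0.95 and 0.84, with 0.66%, 0.918%, 0.654% and 1.48% of all probes called higher from day 10 on. For these LON differences, the diet and a separate handling of the LON arrays cannot be told apart. In LUN, Mid1ip1 was below control on days 5, 10 and 21 (-1.52, -1.56 and -1.65), and on day 5 so were Insig1 (-2.18), Idh1 (-1.38), Slc2a4 (-1.29) and Hk2 (-1.27). Going the other way, Pgls of the supply list was called above control on day 10 (1.03), and Insig2 of the regulators on day 21. On day 21 the differences of Fasn (-2.09) and Elovl6 (-1.71) in LUN were not called. The shares of all probes called lower in LUN on these 3 days were 0.86%, 0.818% and 1.14%.

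**Figure D4:**
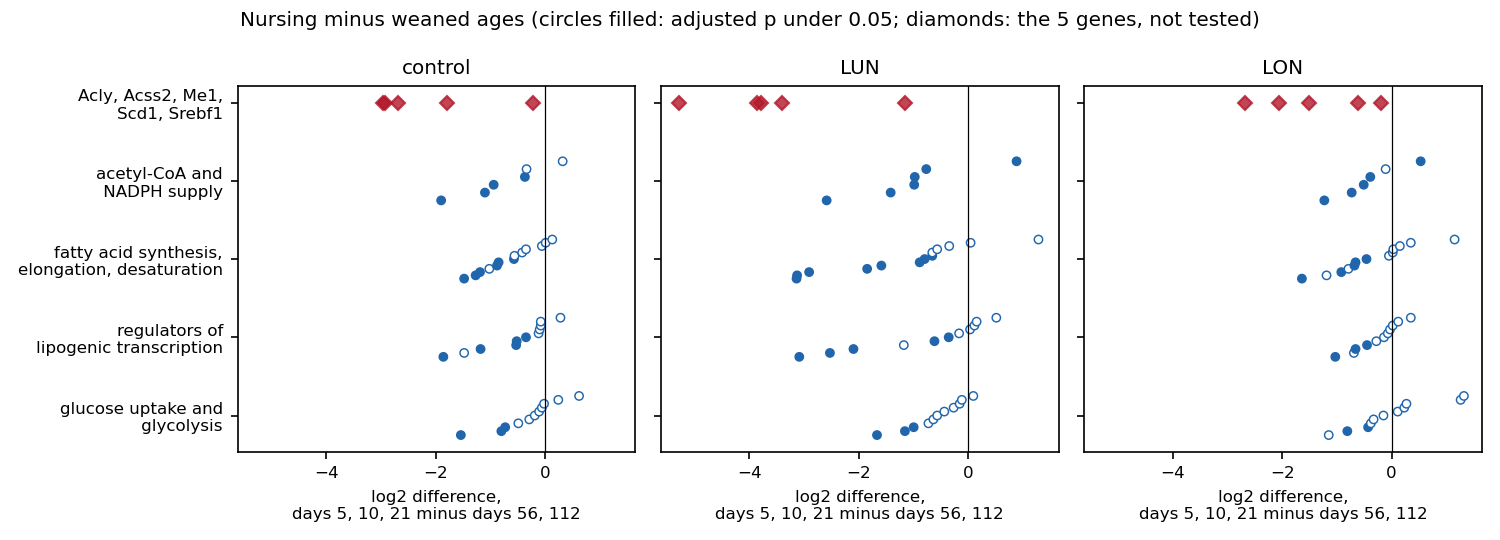
Log2 difference, nursing ages (days 5, 10, 21) minus weaned ages (days 56, 112), along the horizontal axis in control, LUN and LON; diamonds are the 5 genes, which were picked on this contrast and are not tested, and circles are the measured genes of 4 lists, filled where the adjusted p was under 0.05. Spread within a row is for sight only; most called genes lie left of 0, fewest in glycolysis.

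Over the 15 pool means of the log2 signal, the 5 genes had correlations with each other between 0.61 (Acly with Scd1) and 0.95 (Acss2 with Me1), and without array 2 of control day 112 between 0.59 and 0.95 for the same pairs. These describe 15 pools that share ages, diets and arrays, and no p is given. Patterns were compared over 7287 genes that were brighter than the median probe and ranged over at least 1 on the log2 scale. The closest to Acss2 was Me1 (r = 0.952), then Plin2, which coats lipid droplets (0.935), and Aldh1a7 (0.931), and the values without the array were 0.947, 0.937 and 0.928. Those of Me1 after Acss2 were Rpe (0.940, and 0.939 without the array) and Pigh (0.935, and 0.900 without it). The closest to Acly was Ank (0.940), then Parm1 (0.932) and Tmem79 (0.932), and without the array Elovl6 (0.944) came before them. Scd1 was nearest to Phospho2 with the array (0.978) and without it (0.977), while its next 2, Dynll2 (0.939) and Serp1 (0.937), gave way to Tapbp (0.932) and Ywhag (0.930). For Srebf1 the array changed the order most. With it the nearest were Scd2 (0.923), Ptger3 (0.903) and Mid1ip1 (0.889), and without it Bhlhe40 (0.887), Msmo1 (0.876) and Rnpep (0.875), with Scd2 at 0.854.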

How the data were processed

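RNA of inguinal fat was measured on 45 Applied Biosystems Mouse Genome Survey arrays. The authors hybridized labelled cRNA and read it by chemiluminescence, and the raw intensity values they deposited are linear and not normalized. The log2 values they deposited were quantile-normalized by them in Bioconductor and served here as an alternative. Quantile normalization was applied here to the raw intensities of the 45 arrays together, and their log2 was fitted in limma 3.58.1 (R 4.3.3) with a mean per group. Tests were two-sided at a threshold of 0.05 after Benjamini-Hochberg adjustment across 33012 probes. The fit was tested on simulated data. Of the probes, 14411 had 1 symbol, 247 had more and 18354 had none, and 14402 symbols were updated by gene ID. Pools were also fitted as 15 samples with age and diet as terms. With 1 pool a group, the arrays measure technical spread only, and their number limits how finely.

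The 5 genes and the lists were chosen with earlier results of these data known. Genes named from a list were picked among those called with the largest differences, up to 4 a list and comparison. Not all of these are named, and some with larger differences were left out. Examples are Mbtps2 (-1.86) and Elovl3 (-1.48) for nursing against weaned ages in control, both not called without array 2 of control day 112. Fasn, Scd2, Thrsp and Elovl6 where they were not called were added after their values were seen. The nearest patterns were the 3 highest Pearson correlations for each gene. Array numbers were not taken to pair the samples. The mean correlation of deviations between arrays of a number was between -0.0078 and -0.00027, and single pairs of arrays ran from -0.38 to 0.63. A shared handling of single pairs was not tested. Alternatives were median scaling, the deposited log2 values, an offset of 244.7, cyclic loess, bright probes only, a variance trend, only the arrays compared, other ages, the methods' test, a replicate block and each array left out. Plots were drawn with matplotlib 3.10.9.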

Additional observations from a re-analysis of the deposited data

Results flagged for a closer look

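These differences are between effects whose arrays all lay on opposite sides, and none of them was tested. For Acly, LON was above control at day 5 (1.25), day 56 (0.36) and day 112 (0.96) and below it at day 21 (-0.23), so that the effect differed from that of day 21 by 1.48, 0.59 and 1.18 on the log2 scale. For Me1, the step from day 5 to day 10 was 0.62 in LUN, -0.44 in control and -2.67 in LON, and LUN differed from control by 1.06 and from LON by 3.29. The step of Me1 from day 5 to day 21 was 0.91 in LUN and -1.30 in LON, a difference of 2.21. For Scd1, LUN was above control at day 21 (1.02) and below it at day 5 (-2.95) and day 10 (-3.14), which are differences of 3.96 and 4.16. Under median scaling the arrays of LON and control overlapped for Acly at days 21 and 56.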

How the results depend on the processing

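Most values kept their direction and their side of the threshold, and more of the medians moved under median scaling than under the other normalizations. It shifted the median of all probes by -0.168 to 0.145, and its values are given without subtracting that shift. The median over the 5 genes was -2.91 for nursing against weaned ages in control. Against control under this scaling LUN had -1.09, -1.31, -0.80 and -0.36 at days 5, 10, 21 and 56, and LON had 3.21, 0.33, -0.05 and 1.41 at days 5, 10, 56 and 112, with the sign turned at day 56. Day 112 against day 56 gave -0.57 in control and 0.16 in LON, the latter also of opposite sign, and day 21 against days 5 and 10 gave 0.22, 0.34 and 0.31 in control, LUN and LON. Cyclic loess gave -0.78 for LUN at day 10. Without day 21 the nursing ages gave -2.93, -3.99 and -1.89 in the 3 diets, and against day 56 alone -2.98 in control and -4.51 in LUN. The cause of these shifts was not tested.

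With single arrays left out, nursing against weaned ages ranged from -2.84 to -2.16 in control, -3.84 to -3.70 in LUN and -1.57 to -1.47 in LON. LUN against control ranged from -1.51 to -1.13, -1.15 to -0.83, -1.12 to -0.99, -0.11 to 0.01 and -0.23 to 0.08 from day 5 to day 112, and LON from 2.53 to 2.81, 0.52 to 0.71, 1.34 to 1.51, 0.38 to 0.44 and 0.77 to 1.10. Day 112 against day 56 ranged from -1.16 to -0.07, -0.41 to -0.16 and -0.31 to -0.10, and day 21 against days 5 and 10 from 0.69 to 0.77, 0.52 to 0.65 and 0.39 to 0.61. Over pools these were -0.14 to 0.00 and 0.61 to 0.88. Scd1 between days 56 and 112 in control turned to 1.77 without replicate 2 of control day 112. A replicate block changed 0 of 95 calls, and the median for day 112 against day 56 in control stayed at -0.11 under it. Each gene had 1 probe, so that the mean of all probes could not differ. With 1 pool a group, no spread between mice could be measured.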
